A study of Mus musculus with 2 samples.

Results

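The regulatory T cell identity genes described here are 8 genes of the 32285 counted: Foxp3, Il2ra, Ikzf2, Ikzf4, Izumo1r, Gpr83, Lrrc32 and Il10. They were chosen by symbol, as genes known for regulatory T cells, and all 8 are in the gene list of both libraries. Their UMIs were counted in immune cells of tumours that grew in C57BL/6 female mice from implanted MC38 cells, a mouse colon carcinoma line. One library came from mice given vehicle and the other from mice given LC427, an agent that the labels name only by this code. Tumours of both groups were harvested on day 14, digested and depleted of dead cells, and cells with the leucocyte protein CD45 were enriched on magnetic beads before 10x 5′ capture. The labels write the treatment into their genotype field too, and name no genetic difference between the groups. Age, dose, schedule and the number of mice pooled in a library are not stated. Each group has 1 library, so no test between the groups can be made and no p-value is given. Intervals are at 95% and reflect counting error alone. Because a cell's UMIs come together, such intervals understate the error.

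Regulatory T cells restrain other T cells and keep immune responses from damaging the body's own tissues, and in tumours they can hold back the response to the tumour. Their defining regulator is the forkhead transcription factor FOXP3. FOXP3 is made together with a high-affinity interleukin-2 receptor, with Ikaros-family transcription factors, and with surface proteins and cytokines that act on neighbouring cells. Most of these partner genes are also used outside regulatory T cells, which is why detection in 1 cell with Foxp3 and detection in other cell classes are given here side by side.

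Foxp3 lies on chrX:7573644-7595245 (plus strand, GRCm38), and its annotated span overlaps the non-coding gene Flicr on the same strand and Ccdc22 and Ppp1r3f on the other. The sources used here do not say whether the counting used strand, so UMIs in these overlaps are uncertain. Il2ra lies on chr2:11642807-11693193 (plus), Lrrc32 on chr7:98489283-98502181 (plus) and Il10 on chr1:131019845-131024974 (plus). Ikzf2 lies on chr1:69531214-69687245 (minus) and Ikzf4 on chr10:128630843-128645991 (minus). Gpr83, at chr9:14860210-14870789 (plus), and Izumo1r, at chr9:14885814-14903949 (minus), are neighbours, with 15024 bases between them. All 8 are annotated as protein-coding genes.

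RefSeq promoter windows (GRCm38.p6) were at hand for 4 of the 8 members: Foxp3, with 2 start sites, Il2ra, Izumo1r and Gpr83. Printed here are stretches in front of Foxp3 (its first start), Il2ra and Izumo1r, because these genes were detected in the same cells in the results that follow. Those of Foxp3 and Izumo1r stop where an annotated exon of their own gene begins. That of Il2ra is the full window of 250 bases, which holds no annotated Il2ra exon. The Foxp3 stretch lies within exons of Flicr. Capitals mark TTTCC, the reverse complement of the core GGAAA bound by NFAT factors of T cell activation, and no other motif searched lies in these 3 stretches. The Foxp3 stretch is chrX:7579426-7579566 (plus strand), the Il2ra stretch is chr2:11642542-11642791 (plus strand) and the Izumo1r stretch is chr9:14903950-14904017 (minus strand).
Foxp3: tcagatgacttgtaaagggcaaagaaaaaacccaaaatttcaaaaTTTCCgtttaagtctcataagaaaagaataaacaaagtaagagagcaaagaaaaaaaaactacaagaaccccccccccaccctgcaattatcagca
Il2ra: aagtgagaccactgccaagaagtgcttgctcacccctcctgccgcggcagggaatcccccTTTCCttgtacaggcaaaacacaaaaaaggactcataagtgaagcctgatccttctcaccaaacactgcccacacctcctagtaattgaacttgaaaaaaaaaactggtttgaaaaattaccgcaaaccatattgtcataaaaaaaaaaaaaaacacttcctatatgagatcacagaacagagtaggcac
Izumo1r: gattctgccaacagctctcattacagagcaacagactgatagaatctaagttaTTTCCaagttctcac

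Over the 250 bases before each start, GGAAA or its reverse was found in 4 of the 5 member windows, and in 55.6% of the 32851 RefSeq windows of this length, so it is common among promoters. The forkhead core GTAAACA, searched on both strands, was found in 0 of the 5 member windows and in 3.17% of all windows. The STAT core TTCNNNGAA was found in 1 member window, before the second Foxp3 start and overlapping a GGAAA match, and in 7.02% of all windows. The Runt core TGTGGT was found before Izumo1r and in 14.0% of all windows. The cyclic AMP response core TGACG was found before Gpr83 and in 17.8% of all windows, and TATAAA before the first Foxp3 start and in 12.4%. These are matches of letters in a short window.

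The vehicle library held 5025 cells with a median of 3494 UMIs and the LC427 library 6008 cells with a median of 2356 UMIs. T cells were gated as cells with at least 1 UMI of Cd3d, Cd3e or Cd3g, the genes of the T cell receptor's signalling chains, and are called Cd3-positive. This gave 747 cells in vehicle (median 3072 UMIs) and 941 in LC427 (median 2373 UMIs). Clusters were made without the 8 members and named from marker genes, and 616 of the Cd3-positive vehicle cells and 760 of those in LC427 fell in T-like clusters. Of the 3 T-like clusters, cluster 2 was led by Icos, Ctla4 and Tnfrsf4 beside T cell genes, and cluster 12 by Cd8a and Cd8b1. Cluster 14 was led by Icos, Tnfrsf4, Ctla4 and T cell genes like cluster 2, so leaving it out removes such cells too. It carried macrophage transcripts as well, with at least 2 UMIs of the complement genes C1qa, C1qb and C1qc in 39.6% of its vehicle cells and 39.3% of its LC427 cells, against 2.38% and 2.48% in cluster 2. It held 91 vehicle and 318 LC427 cells. The Foxp3 and Il10 levels, the Foxp3-positive cells, the likeness ranking and the gene lists are therefore given with and without it. So is detection of at least 1 other member beside Foxp3, while detection of single members is given with it only. The libraries shared 46 barcodes among their called cells.

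Foxp3 was detected in 41 of 747 Cd3-positive vehicle cells (5.49%) and in 63 of 941 Cd3-positive LC427 cells (6.70%). Its summed level was 18.9 per 1000000 UMIs of those cells (CPM, interval 14.5 to 24.1, 64 UMIs) in vehicle and 26.9 CPM (21.7 to 33.0, 93 UMIs) in LC427. Monocyte/macrophage-like cells, which do not make FOXP3, had a Foxp3 UMI in 8 of 3381 cells in vehicle (0.237%, median 3617 UMIs) and 8 of 3888 in LC427 (median 2274 UMIs). Empty droplets held Foxp3 at 3.52 CPM in vehicle and 3.69 CPM in LC427. Both libraries' gated cells were above these levels. In vehicle 26 of the 41 cells, and in LC427 40 of the 63, held a single Foxp3 UMI, so a cell without a Foxp3 UMI is not shown to lack the gene at this depth.

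The LC427 to vehicle ratio of the Foxp3 level was 1.43 (1.03 to 1.99) in Cd3-positive cells. With every cell thinned to 1000 UMIs, Foxp3 was seen in 11 of 747 vehicle cells and 29 of 941 LC427 cells. The ratio of shares was 2.09 (1.05 to 4.16), and not thinned it was 1.22 (0.833 to 1.79). Averaged over all possible draws, the thinned shares (the expected shares) were 1.70% and 3.06%. The interval of the ratio of shares lay above 1 under 4 of the 14 alternatives, among which the expected shares have no interval. With cells of at least 500 UMIs admitted the level ratio was 1.38 (70 and 99 UMIs). The expected shares, thinned to 500 UMIs, were then 1.34% and 1.86%, while the single draw gave a ratio of shares of 0.938 (13 of 802 and 17 of 1118 cells). The direction did not hold in deeper cells. Among cells with at least 2000 UMIs the level ratio was 0.943 (66 and 63 UMIs). The expected thinned shares were 1.97% in vehicle and 1.76% in LC427. Doublets were removed anew at this limit, 129 vehicle and 117 LC427 barcodes in place of 220 and 320, so depth was not the only change. The Foxp3 level was thus higher in LC427 over all gated cells at the main settings and not over the deeper ones. The median depth of gated cells was itself lower in LC427. For the level ratio the interval lay above 1 under 4 of 10 alternatives. Divided by the median ratio over all genes, the level ratio was 1.36 (0.981 to 1.90). By cluster, T-like cluster 2 stood at 43.8 CPM in vehicle and 85.4 CPM in LC427, and the ratio was 1.95 (1.16 to 3.29), cluster 14 at 22.6 and 28.1 CPM and cluster 12 at 6.69 and 5.82 CPM. Without cluster 14 the ratio in gated cells was 1.34 (0.888 to 2.01).

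The high-affinity chain of the interleukin-2 receptor, Il2ra (CD25), stood at 122 CPM (111 to 135) in Cd3-positive vehicle cells and 97.9 CPM (87.7 to 109) in LC427, and the ratio was 0.80 (0.691 to 0.925). It was found in 176 vehicle and 200 LC427 cells. Ikzf2, which encodes the Ikaros-family factor Helios, stood at 261 CPM (244 to 279) and 251 CPM (235 to 269), a ratio of 0.964 (0.877 to 1.06). Its relative Ikzf4, which encodes Eos, a partner of FOXP3 in gene silencing, stood at 16.8 CPM (12.7 to 21.8) and 15.6 CPM (11.7 to 20.4). For Ikzf4 the ratio was 0.930 (0.629 to 1.37), so both Ikaros-family members had intervals that include 1.

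Among the surface proteins, Izumo1r (folate receptor 4) stood at 36.0 CPM (29.9 to 43.0) in vehicle and 38.8 CPM (32.5 to 46.0) in LC427. Lrrc32, which encodes GARP, the protein that holds latent TGF-beta on the cell surface, stood at 10.9 CPM (7.69 to 15.0) and 8.40 CPM (5.62 to 12.1). Gpr83, a G protein-coupled receptor gene, gave 1 UMI in vehicle and 3 in LC427, which is too few to compare. The cytokine gene Il10 stood at 8.26 CPM (5.49 to 11.9, 28 UMIs) and 11.6 CPM (8.28 to 15.8, 40 UMIs), a ratio of 1.40 (0.844 to 2.36). Of the 7 members with at least 20 UMIs, 0 were at least 1.5-fold higher in LC427 and 0 at least 1.5-fold lower, while 11.5% of the 10584 genes tested were higher and 7.27% lower by that fold. With ratios divided by their median over all genes, 1031 genes were higher and 945 lower, in place of 1220 and 769, and still 0 members passed. Without T-like cluster 14, 0 of 7 members passed either way, where 14.2% of 10090 genes were higher and 6.91% lower. With at most 1 C1q UMI allowed per cell, Foxp3 (1.68) and Il10 (1.72) passed the fold. More genes passed it upward there as well: 1525 were higher and 691 lower, in place of 1220 and 769. With at least 2000 UMIs a cell the Il10 ratio was 0.889 (0.508 to 1.55), and without T-like cluster 14 it was 1.34 (0.694 to 2.57).

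**Figure D1:**
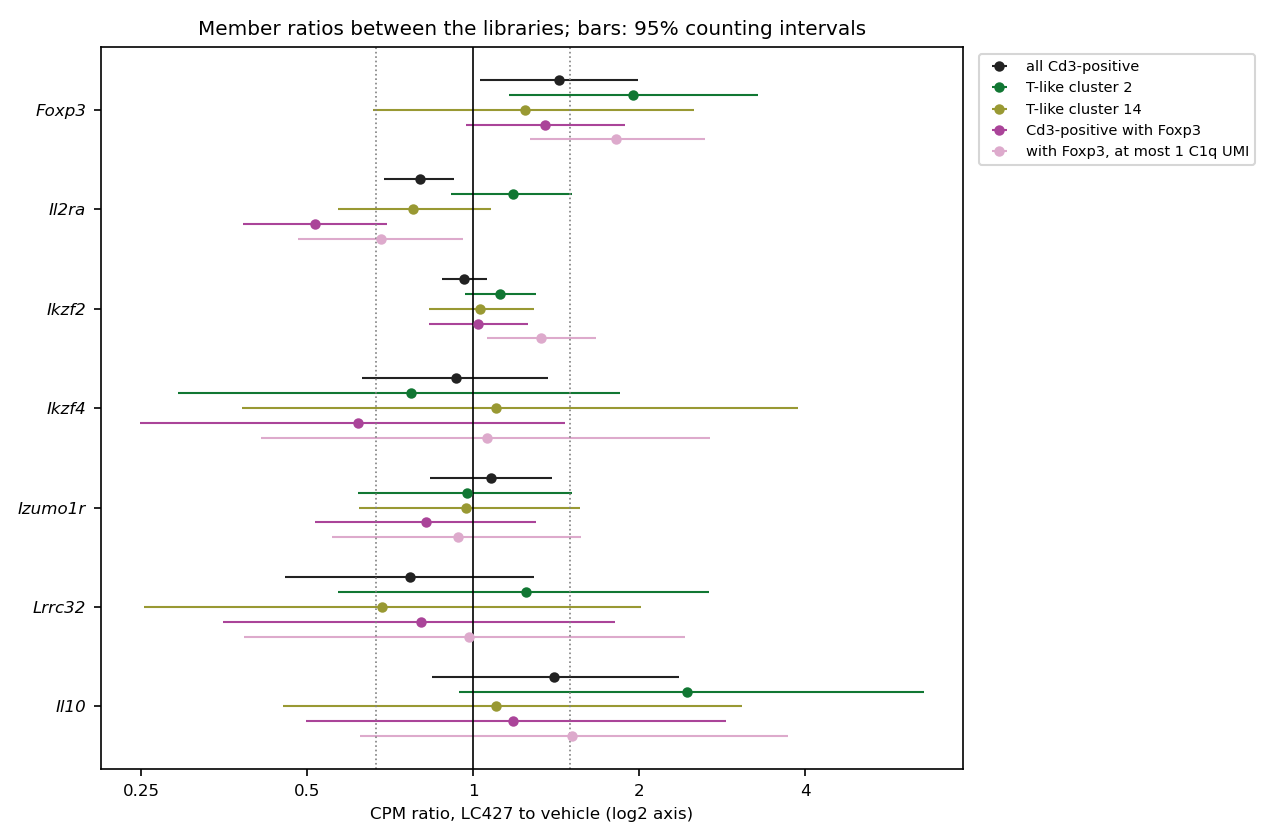
LC427 to vehicle ratio of CPM (x axis, log2 scale) for 7 members in 5 sets of cells; points are ratios, bars 95% counting intervals, the solid line marks 1 and dotted lines mark 1.5-fold. Il2ra lay below 1 in all Cd3-positive cells (0.80) and in those with Foxp3 (0.518) but at 1.18 in T-like cluster 2, and in the sets with Foxp3 the level of Foxp3 itself is set by the gate.

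Cells with a Foxp3 UMI carried the other members far more often than cells without one. Ikzf2 was found in 92.7% of the 41 Foxp3-positive and 41.5% of the 706 Foxp3-negative Cd3-positive cells of vehicle, and in 88.9% of 63 and 36.3% of 878 in LC427. Il2ra was found in 75.6% and 20.5% in vehicle and in 63.5% and 18.2% in LC427. Izumo1r was found in 46.3% against 8.5% in vehicle and 41.3% against 7.74% in LC427. Before depth was matched, the receptor chain, Helios and folate receptor 4 were thus each more frequent beside Foxp3 in both libraries.

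Of the rarer members, Lrrc32, Ikzf4 and Il10 were more frequent beside Foxp3 as well, while Gpr83 was in 1 of 41 Foxp3-positive vehicle cells, 0 of 63 in LC427 and 3 of 878 Foxp3-negative LC427 cells. Lrrc32 was found in 24.4% of Foxp3-positive and 2.27% of Foxp3-negative cells in vehicle, and in 20.6% and 1.71% in LC427. Ikzf4 was found in 29.3% and 5.38% in vehicle and in 12.7% and 4.44% in LC427. Il10 was found in 3 of 41 Foxp3-positive vehicle cells (7.32% against 1.42%) and in 10 of 63 in LC427 (15.9% against 2.16%). At least 2 of the 7 other members were found in 85.4% of Foxp3-positive vehicle cells and 87.3% of those in LC427, against 16.6% and 14.4% of Foxp3-negative cells.

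Foxp3-positive cells were deeper, with medians of 5790 UMIs against 2960 in vehicle and 3446 against 2344 in LC427, and deeper cells show more genes. Thinned to 1000 UMIs, at least 1 other member was found in 6 of 11 Foxp3-positive and 253 of 736 Foxp3-negative vehicle cells, a ratio of 1.59 (0.917 to 2.75), so the vehicle ratio was not apart from 1 in this draw, which held few Foxp3-positive cells. The vehicle interval lay above 1 under 10 of the 12 alternatives tried, among them 1.93 (1.20 to 3.10) without T-like cluster 14. The 10 include the shares not thinned (1.78), which are not matched for depth, and at least 2 other members, a different measure. With doublets at 1.6% per 1000 cells the interval rested on 8 of 8 Foxp3-positive cells. In LC427 at least 1 other member was found in 24 of 29 and 279 of 912 cells, a ratio of 2.71 (2.23 to 3.28). Without cluster 14 the LC427 ratio was 2.77. At least 2 other members were found in 5 of 11 against 45 of 736 thinned vehicle cells, a ratio of 7.43 (3.67 to 15.1), and in 11 of 29 against 50 of 912 in LC427, a ratio of 6.92 (4.04 to 11.8). Thinned Ikzf2 gave a ratio of 1.88 (0.972 to 3.64) in vehicle, not apart from 1, and 3.11 (2.37 to 4.09) in LC427. Thinned Lrrc32 and Il10 were each in 0 of 11 Foxp3-positive vehicle cells, which allows no comparison. Thinned Il2ra alone gave a ratio of 4.46 (2.26 to 8.82) in vehicle and 4.55 (2.73 to 7.60) in LC427. Thinned Izumo1r gave a ratio of 4.18 (1.14 to 15.3) in vehicle, from 2 of 11 Foxp3-positive cells. In LC427 it gave 4.66 (1.74 to 12.4), from 4 of 29. At equal depth, Il2ra, Izumo1r (from few cells) and sets of 2 or more members thus stayed more frequent beside Foxp3. A single other member was common without it, and Ikzf2 alone was in 24.2% of thinned Foxp3-negative vehicle cells and 22.1% of those in LC427.

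**Figure D2:**
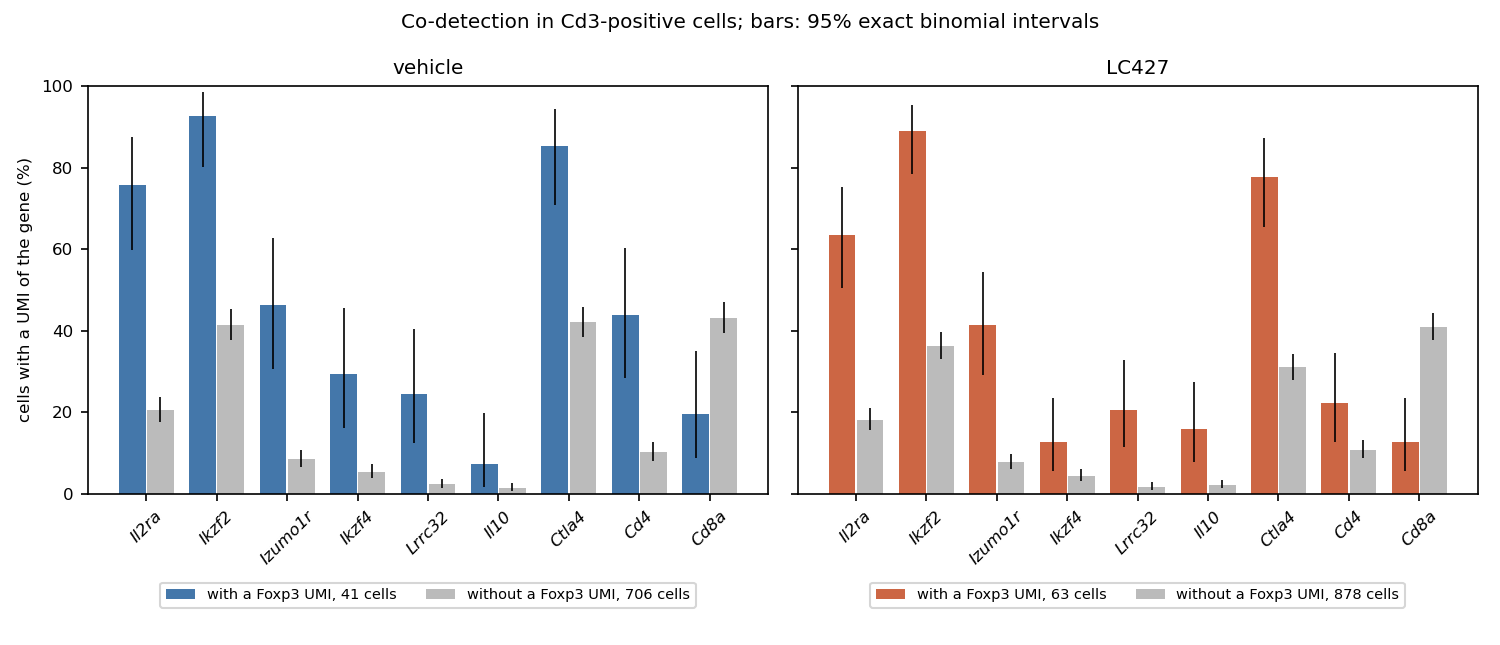
Share of Cd3-positive cells with a UMI of each gene (y axis, percent), among cells with and without a Foxp3 UMI, in vehicle (left) and LC427 (right), not thinned; bars are shares and lines exact 95% binomial intervals. Each of the 6 members drawn is more frequent with Foxp3 in both libraries, and Cd8a less frequent (19.5% against 43.2% in vehicle, 12.7% against 41.0% in LC427).

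Cd8a, a chain of the CD8 co-receptor of cytotoxic T cells, was found in 19.5% of Foxp3-positive and 43.2% of Foxp3-negative vehicle cells, and in 12.7% and 41.0% in LC427. Cd4, the co-receptor of helper and regulatory T cells, was found in 43.9% and 10.2% in vehicle and in 22.2% and 10.8% in LC427. These shares are not matched for depth: thinned, Cd4 was in 0 of 11 Foxp3-positive and 43 of 736 Foxp3-negative vehicle cells, and in 2 of 29 and 45 of 912 in LC427. By level, Cd4 was 2.46-fold higher with Foxp3 in vehicle (1.69 to 3.50) and 1.36-fold in LC427 (0.795 to 2.21). Sorted by co-receptor UMIs, Foxp3 was found in 14 of 75 vehicle cells with Cd4 only (18.7%) and 4 of 333 with Cd8 only (1.20%). In LC427 it was found in 13 of 90 cells with Cd4 only (14.4%) and 8 of 426 with Cd8 only (1.88%). Ikzf2 was found in 33.3% of Cd4-only and 40.8% of Cd8-only vehicle cells, and in 48.9% and 31.9% in LC427. Shares of cells sorted by co-receptor are not matched for depth either. Cd4-only cells had a median of 2539 UMIs and Cd8-only cells 3513 in vehicle, against 3272 and 2275 in LC427. The deeper set thus had the higher Ikzf2 share in each library, and no difference in Helios is read from these shares. Cells with neither co-receptor held 19 of the 41 Foxp3-positive vehicle cells and 41 of the 63 in LC427, so most Foxp3-positive cells of LC427 showed no co-receptor UMI.

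Measured by level, all 7 members with at least 20 UMIs were at least 1.5-fold higher in Foxp3-positive than in Foxp3-negative Cd3-positive cells of both libraries, Foxp3 itself by the gate. Over all genes, 17.8% of 9110 were higher by that fold in vehicle and 13.2% of 9313 in LC427. By the same fold 0 of the 7 were lower, against 20.2% of genes in vehicle and 22.2% in LC427. Lrrc32 stood at 49.6 CPM with Foxp3 and 7.13 CPM without it in vehicle (6.96-fold, 3.36 to 14.0), and at 39.9 and 5.12 CPM in LC427 (7.80-fold, 3.45 to 17.3). Izumo1r stood at 142 and 25.6 CPM in vehicle (5.56-fold, 3.74 to 8.15) and at 117 and 30.7 CPM in LC427 (3.80-fold, 2.54 to 5.59). Il10 stood at 36.4 and 5.51 CPM in vehicle (6.60-fold, 2.80 to 14.9) and at 43.0 and 8.31 CPM in LC427 (5.17-fold, 2.49 to 10.3). GARP, folate receptor 4 and interleukin-10 transcripts were thus all higher in the Foxp3-positive cells of both libraries. Ikzf2, at 595 against 228 CPM in vehicle and 608 against 214 CPM in LC427, showed a smaller fold. Ikzf4 was 2.18-fold higher with Foxp3 in LC427 (0.979 to 4.40), and within T-like clusters it stood at 18.4 against 14.0 CPM there, 1.31-fold (0.400 to 3.40), which does not reach 1.5-fold. Of the 63 Foxp3-positive LC427 cells, 6 lay in the mature regulatory DC-like class, described with Ikzf4 further on.

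Genes were ranked by likeness to Foxp3, as the smaller over the libraries of the lower interval bound of this fold, over 8815 genes. The first 10 were Lrrc32, Ccl22, Klrg1, Areg, Tnfrsf4, Maf, Cst3, Izumo1r, Il10 and Ctla4. Areg encodes the growth factor amphiregulin, Tnfrsf4 the costimulatory receptor OX40, Ctla4 an inhibitory receptor of T cells and Maf a transcription factor. Ikzf2 was at rank 12 and Il2ra at rank 14, while Ikzf4 was at rank 265. Ccl22 and Cst3 are genes of dendritic cells. Cst3 stood at 6718 CPM with and 1821 CPM without Foxp3 in vehicle, and Ccl22 was 4.11-fold higher with Foxp3.

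Of the Foxp3-positive Cd3-positive cells, 31 of 41 in vehicle and 53 of 63 in LC427 lay in T-like clusters, and 8 and 27 of these in cluster 14. Ranked within the 2 T-like clusters other than cluster 14, with 23 Foxp3-positive vehicle and 26 LC427 cells, the first genes were Areg, Maf, Izumo1r, Klrg1, Arl5a, Il2ra, Ctla4, Ecm1, Neb and Gbp3. This ranking was added after the first was seen. There Cst3 was lower with Foxp3 than without it, 0.649-fold in vehicle (0.388 to 1.02) and 0.180-fold in LC427 (0.0723 to 0.373). Il2ra was at rank 6, at 5.42-fold in vehicle (4.08 to 7.12), and Ikzf2 at rank 13 of 6427 genes. Lrrc32 and Il10 had too few UMIs to be ranked in these clusters. In LC427 they gave 13 and 12 UMIs in cluster 2, and 2 each in cluster 12. Areg, Maf, Klrg1, Izumo1r and Ctla4 were among the first 10 in both rankings.

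**Figure D3:**
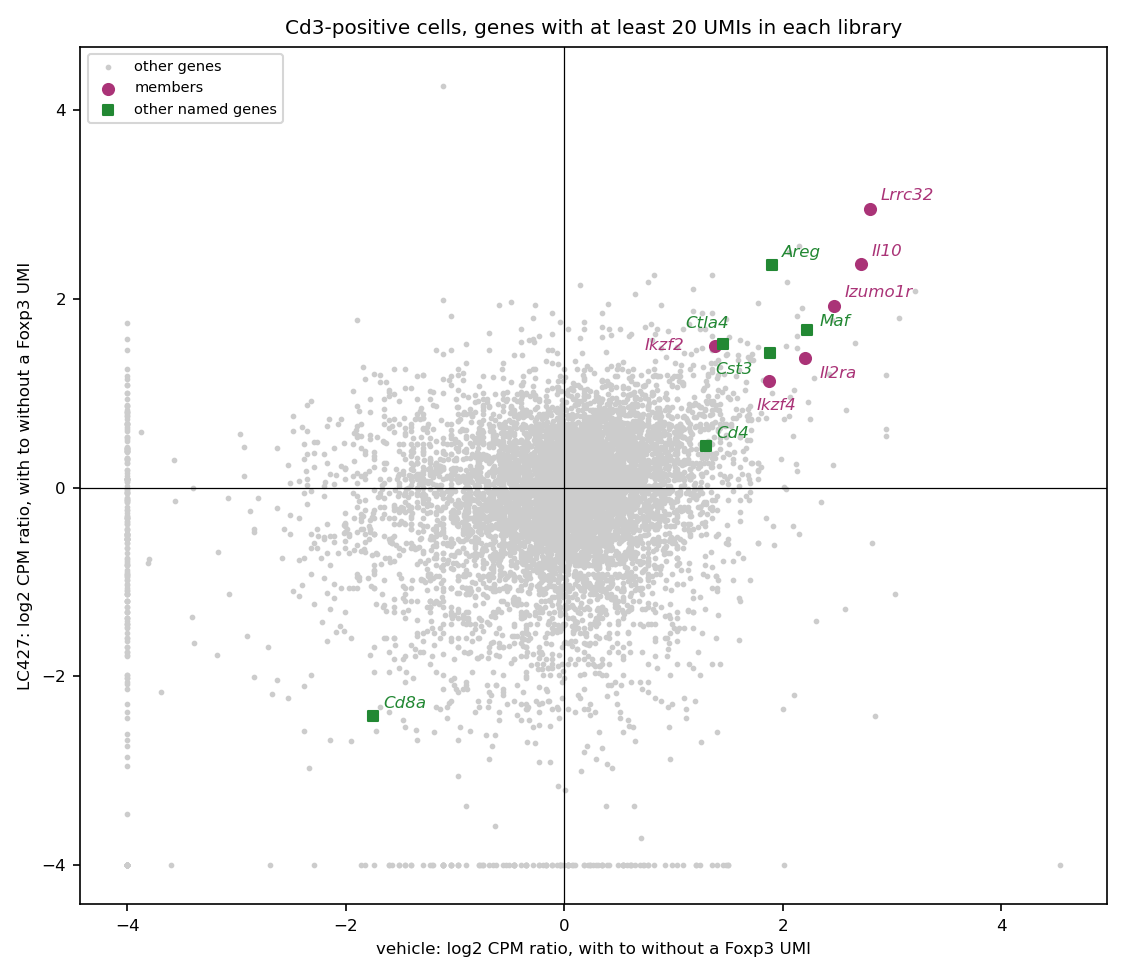
Each of 8815 genes by its log2 CPM ratio in Cd3-positive cells with against without a Foxp3 UMI, in vehicle (x axis) and LC427 (y axis); genes with 0 UMIs in Foxp3-positive cells or ratios below the drawn range are placed at its lower end. Purple points are members and green squares other named genes, and all 6 members drawn lie in the upper right, with Cd8a in the lower left.

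Within Foxp3-positive cells Il2ra stood at 426 CPM (356 to 507, 129 UMIs) in vehicle and 221 CPM (173 to 278, 72 UMIs) in LC427, and the ratio was 0.518 (0.383 to 0.697). Ikzf4 stood at 49.6 CPM (15 UMIs) and 30.7 CPM (10 UMIs), a ratio of 0.619 (0.249 to 1.47). These were the 2 of 7 members at least 1.5-fold lower in LC427, against 16.3% of the 4254 genes tested, and 0 of 7 were higher against 13.4%. Ikzf2 was at 595 and 608 CPM, and Izumo1r at 142 and 117 CPM (0.821, 0.516 to 1.30).

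The size of the Il2ra difference moved with the macrophage transcripts. Among Foxp3-positive cells with at most 1 C1q UMI it was at 423 and 289 CPM, a ratio of 0.682 (0.481 to 0.959). Outside T-like cluster 14 the ratio was 0.871 (0.589 to 1.27, 96 and 41 UMIs), and within cluster 14 it was 0.414 (0.245 to 0.698). Cluster 14 gave 8 of the 41 Foxp3-positive vehicle cells and 27 of the 63 in LC427, and in LC427 12 of the 63 held at least 2 C1q UMIs, against 5 of 41 in vehicle. The summed level of the 8 macrophage genes listed was 0.118% of UMIs in the Foxp3-positive vehicle cells and 0.251% in those of LC427, with none of the 8 at 0. The part of these transcripts in the lower Il2ra level was not tested. In Foxp3-negative cells Il2ra stood at 92.6 and 85.1 CPM, a ratio of 0.918 (0.774 to 1.09).

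The other members also moved when cluster 14 was left out of the Foxp3-positive cells. For Ikzf2, 676 CPM was then left in vehicle against 1177 CPM in LC427, or 1.74-fold (1.35 to 2.24), where over all Foxp3-positive cells it was at 595 and 608 CPM. The Ikzf4 ratio turned to 1.36 (0.482 to 3.62, 12 and 8 UMIs). Of the 6 members tested there, 2 were at least 1.5-fold higher, Ikzf2 and Foxp3, whose level the gate sets, against 17.8% of 2319 genes, and 0 were lower, also against 17.8%.

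Among the classes, T-like cluster 2 had the highest level of Il2ra (229 CPM in vehicle and 269 CPM in LC427) and of Ikzf2 (670 and 753 CPM), apart from the next class in both libraries. It also had the highest Izumo1r (87.5 and 85.4 CPM) and Il10 (12.7 and 31.0 CPM), with intervals that overlap those of cluster 14. Lrrc32 stood there at 26.8 and 33.6 CPM, the highest level in LC427 but below that of fibroblast-like cells in vehicle, and in vehicle its interval overlaps that of cluster 14 (12.2 CPM). In the CD8 cluster 12 Il2ra stood at 112 and 92.1 CPM, Ikzf2 at 231 and 241 CPM, Izumo1r at 17.1 and 17.5 CPM and Lrrc32 at 0.743 and 1.94 CPM. Gpr83 gave at most 2 UMIs in any class of either library. Over all Cd3-negative cells at least 1 member was detected in 8.06% in vehicle and 6.02% in LC427, against 58.5% and 52.6% of Cd3-positive cells.

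Ikzf4 differed from the other members in its leading class, as the plot of levels by class shows. Ikzf4 had its highest level in mature regulatory DC-like cells, the migratory dendritic cells marked by Ccr7, Fscn1 and Ccl22. It stood there at 81.7 CPM (60.5 to 108, 49 UMIs) in vehicle and 91.2 CPM (66.0 to 123, 43 UMIs) in LC427. The next class, T-like cluster 2, stood at 26.8 CPM in vehicle and 20.7 CPM in LC427, apart from it in both libraries, while empty droplets stood at 2.71 and 3.69 CPM. Against all other Cd3-positive cells of the same library the ratio was 4.85 in vehicle and 7.23 in LC427.

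In mature regulatory DC-like cells with no Cd3 UMI, Ikzf4 stayed at 89.6 CPM in vehicle (48 UMIs) and 88.9 CPM in LC427 (31 UMIs). In the same cells Foxp3 gave 0 and 1 UMIs, Izumo1r 0 and 1, and Ikzf2 3 and 3. Il2ra was the exception, at 93.4 CPM in vehicle (50 UMIs) and 68.9 CPM in LC427 (24 UMIs), which is above the 21.4 and 23.5 CPM of empty droplets. All cells of the class together showed Ikzf2 at 15.0 CPM in vehicle and 91.2 CPM in LC427, and the ratio was 6.08 (2.92 to 14.2), and Izumo1r gave 3 and 13 UMIs. Ikzf2 was the 1 of 3 members tested in the class that was at least 1.5-fold higher, against 17.7% of 5009 genes, and 0 were lower against 9.78%. That difference lay in the cells with a Cd3 UMI, 8 of 136 in vehicle and 27 of 157 in LC427. In the authors' deposited table of each library, Ikzf4 had its largest log2 fold change in the cluster where the dendritic cell gene Fscn1 had its largest. The authors' deposited table of vehicle gives 4.51 for Ikzf4 in cluster 12, and that of LC427 gives 3.89 in cluster 7. For vehicle the authors' table had Foxp3 (3.19) and Il2ra (3.03) largest in cluster 11, where Cd8a was also largest (4.18). In their cluster 5, where Cd4 was largest, Foxp3 was at 2.70 and Il2ra at 2.78. For LC427 Foxp3 (3.10) and Il2ra (2.81) were largest in cluster 3, where Cd4 was largest too (3.26).

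**Figure D4:**
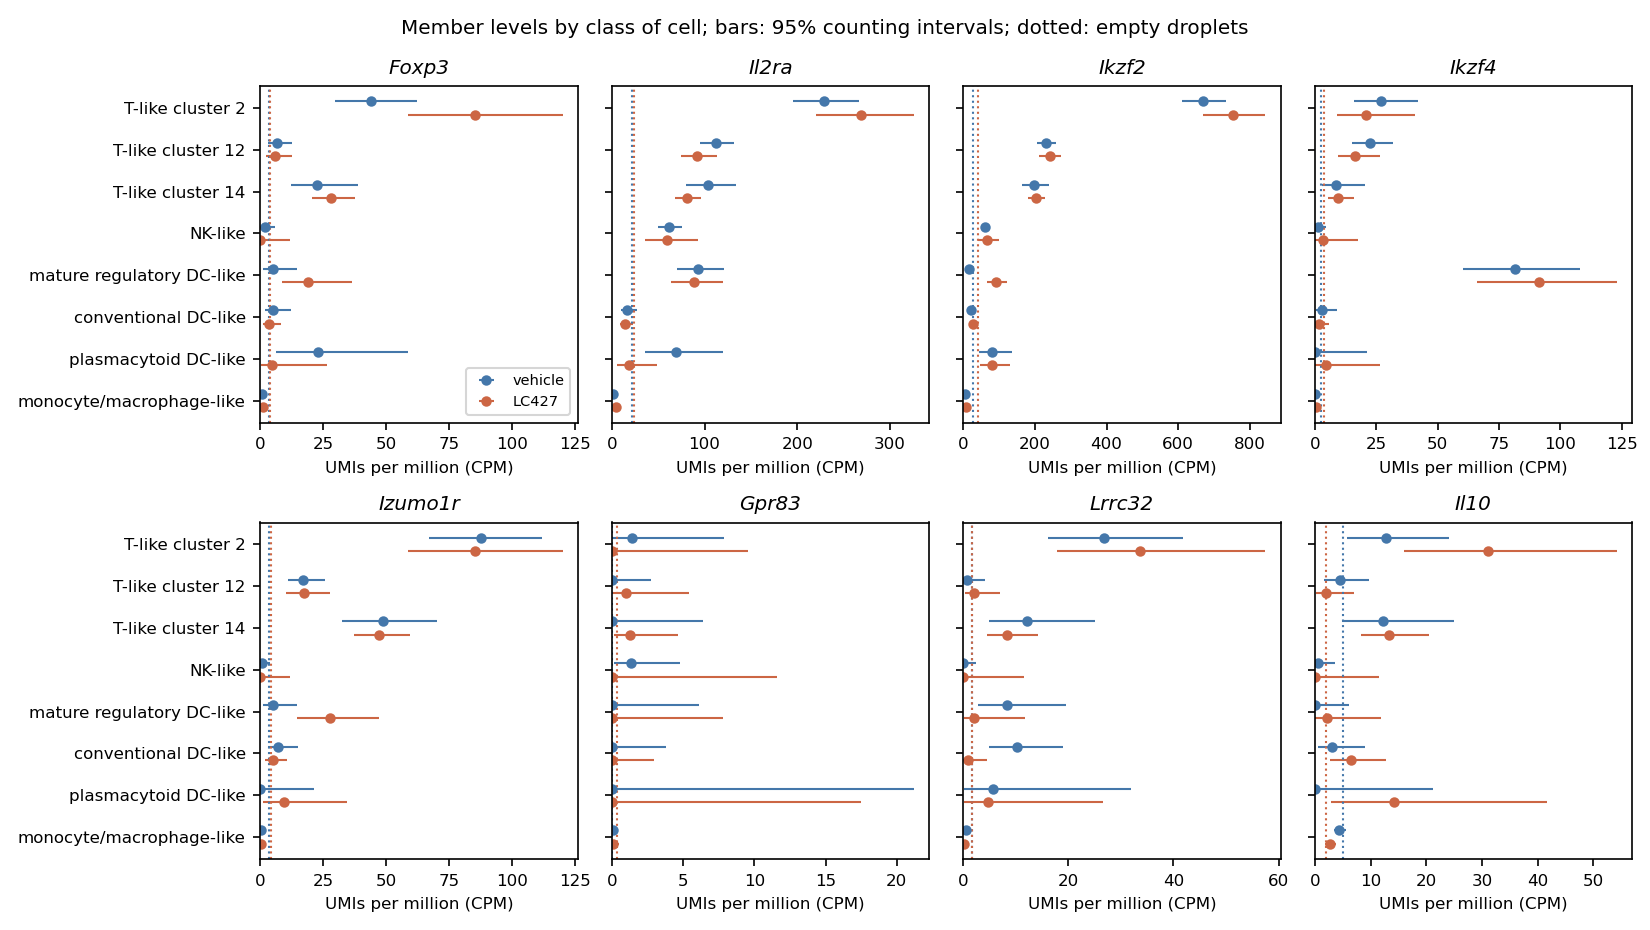
Level of each member (x axis, CPM, a separate linear scale per panel) in 8 classes of cells (y axis), vehicle in blue and LC427 in orange; points are summed levels, bars exact 95% Poisson intervals, and dotted lines the level in empty droplets. Ikzf4 is highest in mature regulatory DC-like cells (81.7 and 91.2 CPM), and Foxp3 in T-like cluster 2 (43.8 and 85.4 CPM).

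NK-like cells carried Il2ra at 61.8 CPM (94 UMIs) in vehicle and 59.6 CPM (19 UMIs) in LC427, and Ikzf2 at 61.2 and 65.9 CPM. In those without a Cd3 UMI Il2ra stood at 55.4 and 63.7 CPM and Foxp3, Izumo1r and Lrrc32 gave 0 UMIs in both libraries. Empty droplets held Il2ra at 21.4 and 23.5 CPM and Ikzf2 at 27.1 and 41.7 CPM, so Il2ra was above them in both libraries and Ikzf2 beyond its interval in vehicle. Of the 2 members tested in this class, 0 passed the fold in either direction, where 23.2% of genes were higher and 15.5% lower. Plasmacytoid DC-like cells carried Ikzf2 at 80.4 and 80.8 CPM, from 14 and 17 UMIs.

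Il10, a cytokine of macrophages as well as of regulatory T cells, stood in monocyte/macrophage-like cells at 4.39 CPM (66 UMIs) in vehicle and 2.69 CPM (30 UMIs) in LC427, and the ratio was 0.613 (0.384 to 0.957). Empty droplets stood at 5.15 and 2.02 CPM, so the class as a whole was at about its background in both libraries. The background differed in the same direction. In vehicle 48 of 3381 cells and in LC427 26 of 3888 held an Il10 UMI. Il10 was the 1 of 3 members tested in this class that was at least 1.5-fold lower, against 6.13% of 11509 genes. Ikzf2 and Il2ra were higher there, 2 of 3 against 10.9%, at 7.71 against 4.39 CPM and 4.75 against 0.798 CPM, all below their levels in empty droplets. Of the 10 macrophage clusters, 8 had an Il10 ratio below 1 and 2 above, from few UMIs each. Cluster 1 gave 12 and 2 UMIs (0.204), and cluster 9, in the other direction, 2 and 11 (5.33). The levels of single clusters could stand above the empty droplets, from few UMIs and given here without intervals. In vehicle, cluster 10 was at 11.6 CPM (14 UMIs) and cluster 7 at 8.65 CPM (10 UMIs), against 3.30 and 0 CPM in LC427. Cluster 9 was at 6.48 CPM in LC427.

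In the 31 fibroblast-like cells of vehicle Lrrc32 stood at 48.1 CPM (28.5 to 76.0, 18 UMIs), and LC427 had only 12 such cells with 1 UMI. In conventional DC-like cells it gave 10 UMIs in vehicle and 1 in LC427, or 10.3 and 0.808 CPM.

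The genes around the members were read from lists of regulatory T cell biology. Of 20 surface and effector genes tested in Cd3-positive cells, 1 was at least 1.5-fold higher in LC427 and 2 lower, where 11.5% of all 10584 genes were higher and 7.27% lower, so these counts are near the background. The median ratio was 0.968 against 1.05 over all genes. Itgae, an integrin chain of tissue T cells, was at 11.8 and 18.5 CPM. Klrg1 and the chemokine receptor gene Ccr8 were lower, Ccr8 at 12.7 and 5.50 CPM. Ctla4 stood at 250 and 214 CPM (0.854, 0.773 to 0.944) and Tnfrsf4 at 165 and 164 CPM. Without cluster 14, 1 of the 20 was higher (Itgae) and 3 were lower (Areg, Klrg1 and Ccr8), against 14.2% and 6.91% of 10090 genes. The median ratio was then 0.973 against 1.08 over all genes.

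Of 16 transcription factors of regulatory T cells tested, 2 were higher (Maf and Bcl6) and 7 lower (Gata3, Foxo1, Bach2, Nr4a3, Tbx21, Irf4 and Satb1), with a median ratio of 0.80, against the same 11.5% and 7.27% and median of 1.05 over all genes. Without cluster 14 the counts were again 2 and 7. Nr4a3, an early gene of T cell receptor signalling, was at 232 CPM in vehicle and 86.3 CPM in LC427 (0.372, 0.325 to 0.426). Maf was at 109 and 173 CPM (1.58, 1.39 to 1.81). In Foxp3-positive cells 0 of 12 were higher and 9 lower, against 13.4% and 16.3% of 4254 genes, with a median ratio of 0.540 against 0.974. Among the 9 was Irf4, which effector regulatory T cells need, at 92.6 and 30.7 CPM (28 and 10 UMIs). Cluster 14 held 8 of these 41 vehicle and 27 of these 63 LC427 cells. Without it 1 of 9 was higher and 3 were lower (Rel, Irf4 and Nr4a1), with a median ratio of 0.815 against 1.02 over 2319 genes. Most of the 9 calls were thus not made outside cluster 14, where fewer genes could be tested.

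Of the 10 genes of the interleukin-2 axis tested in Cd3-positive cells, 0 were higher and 3 lower in LC427, against 11.5% and 7.27% of all genes, with a median ratio of 0.794 against 1.05. The other chains of the receptor were both among these 3. Il2rb was at 658 and 432 CPM (0.657, 0.615 to 0.702) and the common chain Il2rg at 298 and 180 CPM (0.605, 0.546 to 0.669). The cytokine gene Il2 gave 21 and 5 UMIs. Without cluster 14, 2 were lower (Il2 and Il2rg), and Il2rb did not pass the fold. Of the 6 interleukin-10 genes 1 was higher, the receptor chain Il10ra at 72.0 and 112 CPM, and 0 lower, and without cluster 14 0 passed either way. Of 11 genes of the latent TGF-beta axis that GARP serves, 0 were higher and 2 lower, Smad3 and the receptor gene Tgfbr2, with a median ratio of 1.02 against 1.05 over all genes. Without cluster 14, Smad2 was higher and the same 2 were lower. The ligand gene Tgfb1 was at 241 and 166 CPM (0.691). Of the 5 Ikaros-family genes 0 passed the fold either way, with or without cluster 14.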

How the data were processed

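The 2 libraries (10x 5′) of CD45-selected MC38 tumour cells were vehicle and LC427. The authors deposited unfiltered UMI counts over 32285 genes per library. Per the submitters' processing notes, Cell Ranger 3.0.1 and Seurat 3 were used with GRCm38 (mm10). The matrix headers give Cell Ranger 4 instead, and it is not settled which of them made the counts. The authors' deposited cluster tables give a log2 fold change and an adjusted p-value per gene for their own clusters. They were used only for the clusters of Ikzf4, Foxp3 and Il2ra.

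Barcodes with at least 1000 UMIs, 400 genes and at most 10% mitochondrial UMIs were kept. Scrublet (scanpy 1.11.5) called 0 doublets by its own threshold, so the highest scores were removed at a rate of 0.8% per 1000 cells (220 vehicle and 320 LC427 barcodes). Leiden clusters (resolution 1, 2000 variable genes, 30 components, 20 neighbours) were named from at least 3 markers in 10% of cells. Clusters and names were rebuilt here, and no cell annotation was used.

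Sums per class gave CPM with exact Poisson intervals, ratios had exact conditional binomial intervals, shares had exact Clopper-Pearson intervals, and ratios of shares had log-scale intervals. Genes needed 20 UMIs over both groups compared and a 1.5-fold ratio. Empty droplets were barcodes of 10 to 100 UMIs. Total depth was 33711726 UMIs in vehicle and 28732435 in LC427. Ratios, intervals and thinning were tested on simulated counts. The rule for named genes was all 8 members in each class, the first 10 genes by likeness to Foxp3, and list genes past the fold or serving a member. Members and lists were chosen with earlier results of these data known. Gene positions come from GENCODE M21. Without replicates, intervals measure counting error and not variation between mice. Alternatives changed cell limits, doublets, the T cell gate, thinning, the fold, the gene minimum, scaling and cluster resolution.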

Additional observations from a re-analysis of the deposited data

How the results depend on the processing

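No paired analysis was possible because each group has 1 library, and for the same reason no replicate could be left out. The alternatives on expected shares, on 2 other members, on leaving out T-like cluster 14 (gene lists included) and on Il2ra in Foxp3-positive cells were chosen after seeing the data. The ratio of Foxp3 shares, 2.09, turned to 0.875 with at least 2000 UMIs a cell, to 0.896 as an expected share in those cells, and to 0.938 in 1 draw to 500 UMIs with at least 500 UMIs a cell, where the expected share gave 1.39. The count of members higher in Cd3-positive cells, 0, became 1 in T-like clusters and 2 with at most 1 C1q UMI. It became 1 with genes of at least 1 UMI and 2 with doublets at 1.6% per 1000 cells. Over all genes, the count higher in these settings was 1223, 1525, 3376 and 1297, in the same order, against 1220 at the main settings. The count of members lower stayed 0 in all 13 settings. The co-detection ratio in LC427, 2.71, became 6.92 for at least 2 other members, 3.52 with at least 500 UMIs, 3.64 with doublets kept, 2.00 not thinned and 3.53 thinned to 500 UMIs. In vehicle, 1.59 became 7.43 for at least 2 other members, 2.97 with doublets at 1.6%, 4.09 thinned to 500 UMIs, 2.45 at 5% mitochondrial UMIs, 2.52 with at least 2000 UMIs, 2.57 with at least 500 and 2.62 with doublets kept. Genes higher, 1220, became 3376 with a minimum of 1 UMI, 769 with 50 UMIs and 378 at 2-fold, and genes lower, 769, became 2882, 461 and 218. The cause was not tested. The Il10 ratio in macrophages ran from 0.507 to 0.626 over 10 settings. Few UMIs limit Gpr83 in every class.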
